A study of Arabidopsis thaliana with 24 samples.

Results

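The Rubisco small subunit genes RBCS1A (AT1G67090), RBCS1B (AT5G38430), RBCS2B (AT5G38420) and RBCS3B (AT5G38410) of Arabidopsis thaliana were described in root tips over 8 groups of genotype and medium. They are 4 of the 24497 genes in the deposited table, and the only 4 genes that carry an RBCS symbol in the RefSeq gene table. They were picked by gene ID, and they were proposed with earlier results of these data in view, in which their levels had been seen to differ between groups. Their levels, fold changes and overlaps between groups are therefore given as a description, with no test.

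Rubisco, the enzyme that fixes carbon dioxide in the Calvin-Benson cycle, is built in the plastid from large subunits encoded by the plastid gene rbcL and small subunits encoded in the nucleus by RBCS. The small subunits are made in the cytosol as precursors, imported through the plastid envelope, trimmed, and assembled with the large subunits by chaperonins. In leaves the RBCS genes are induced by light, and they are a standard readout of retrograde signalling: when plastid development or translation is blocked, their transcripts fall in wild-type seedlings, and in gun mutants they fall less. Root plastids are mostly non-green, and roots hold RBCS transcripts at low level.

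The study set the genotypes wild type (WT, Col), gun1-101, nac103-11 and NAC103-OX side by side, to relate GUN1 and NAC103 under disturbed plastid translation. GUN1 is a plastid pentatricopeptide-repeat protein of retrograde signalling, and NAC103 is a NAC transcription factor. NAC103-OX carries NAC103-GFP under the 35S promoter, which is active in most tissues, so that the transgene was not limited to 1 cell type. All groups were seedlings of about 5 days grown on MS medium of reduced strength with 1% sucrose, and RNA came from root tips of about 0.5 cm. The 4 groups on spectinomycin were moved to medium with 10 mg/L of it, an antibiotic that blocks translation on plastid ribosomes, for about 16 h by the treatment protocol and 24 h by the series design. The 24 libraries formed 8 groups of 3, labelled biological replicates. The batch tag in the labels repeated the group, so any batch effect cannot be told apart from the group.

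The genes lie at 2 places in the genome. In the RefSeq annotation of build TAIR10.1, RBCS1A is at chr1:25048158-25049667 and the B genes form a tandem of 8.33 kb at chr5:15376988-15385320, in the order RBCS3B, RBCS2B and RBCS1B, all 4 on the minus strand. Each has 3 coding exons. The coding sequence is 543 bases in RBCS1A and 546 in each B gene. Aligned coding sequences were 96.7% to 97.3% identical among the B genes and 89.9% to 90.1% identical between RBCS1A and any B gene.

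RBCS promoters are known for light-responsive elements, the G-box and the I-box, that lie close together. These elements are shown because they separate RBCS1B from the other genes. In the 300 bases before the start codon, searched on both strands, RBCS1A held 1 G-box (CACGTG) and 2 I-boxes (GATAAG), RBCS2B and RBCS3B each held 1 G-box and 3 I-boxes, and RBCS1B held 2 overlapping I-boxes and no G-box. Of 27443 genes, 6.22% had a G-box in that window, 15.4% an I-box and 0.153% a G-box with at least 2 I-boxes. The window takes in transcribed bases. Annotated transcript starts lie 175 to 418 bases before the start codon in RBCS1A, 92 to 165 in RBCS1B, 93 in RBCS2B and 110 to 336 in RBCS3B. The matches of RBCS1A and RBCS3B thus lie before the nearest of these starts but inside the transcript that starts farthest out. The G-box windows of 30 bases follow, 5′ to 3′ on the strand of the gene, with G-box and I-box letters in capitals (CTTATC is an I-box on the other strand), at chr1:25049491-25049520, chr5:15382177-15382206 and chr5:15378506-15378535 of TAIR10.1.
RBCS1A G-box: ggaattatcttcCACGTGgcattattccag
RBCS2B G-box: ggagttttctgcCACGTGatCTTATCctag
RBCS3B G-box: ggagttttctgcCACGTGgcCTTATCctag
The windows around the I-box nearest the start codon show what all 4 genes share, at chr1:25049458-25049487, chr5:15385299-15385328, chr5:15382144-15382173 and chr5:15378473-15378502 in the order printed.
RBCS1A I-box: ttcaagccGATAAGggtctcaacacctctc
RBCS1B I-box: aaaGATAAGATAAGggtgtcaacacctttc
RBCS2B I-box: tccaaatcGATAAGggtgtcaacacctttc
RBCS3B I-box: tgcgtaccGATAAGggtgtcaacacctttc
The run after the I-box reads the same in the 3 B genes and differs from it in RBCS1A. The 250 bases before the single annotated transcript start of RBCS2B, at chr5:15382072-15382321, show how the elements lie in 1 promoter.
RBCS2B promoter: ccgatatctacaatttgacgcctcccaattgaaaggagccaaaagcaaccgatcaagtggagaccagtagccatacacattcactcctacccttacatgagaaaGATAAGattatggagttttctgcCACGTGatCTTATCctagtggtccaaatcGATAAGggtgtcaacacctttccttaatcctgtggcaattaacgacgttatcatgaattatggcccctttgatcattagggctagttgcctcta
A match is a match of letters and no measured binding site.

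**Figure D1:**
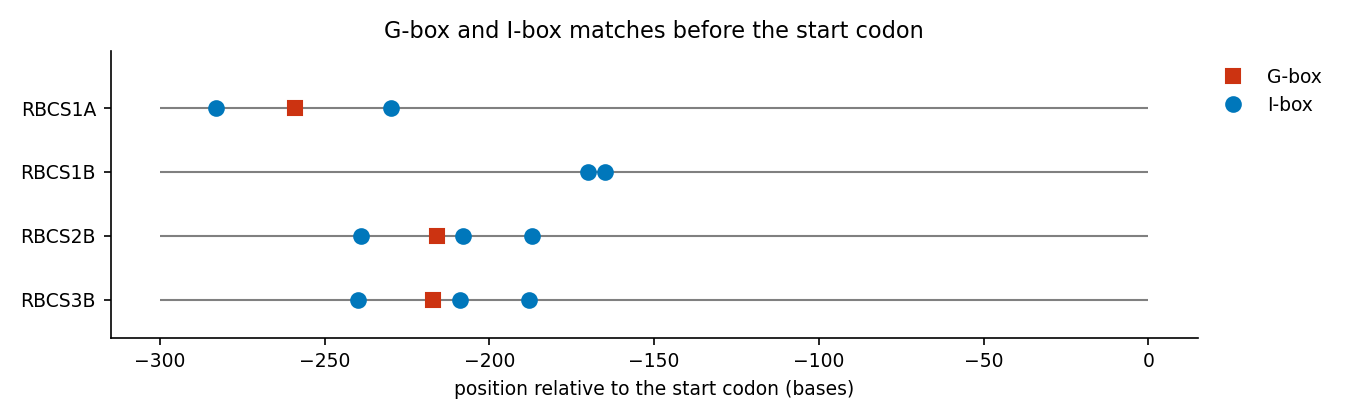
Distance of each G-box (red squares) and I-box (blue circles) match from the start codon, in bases, for the 4 genes over the 300 bases before it. RBCS2B and RBCS3B show the same arrangement of 1 G-box and 3 I-boxes, and RBCS1B has 2 overlapping I-boxes alone.

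Library depth was 13012580 to 17411876 expected counts. Levels are given as CPM, the counts-per-million unit, with library sizes scaled by TMM for composition, and the errors of group means are SDs of 3 libraries. GUN1 was lower in gun1-101 than in WT on control medium (85.8 ± 6.94 against 148 ± 3.55 CPM, SD, n = 3; edgeR's quasi-likelihood test, adjusted p = 5.33e-18) and on spectinomycin (78.6 ± 1.92 against 141 ± 3.54 CPM, adjusted p = 2.16e-19), so that a large share of the transcript remained. NAC103 was higher in NAC103-OX (17.4 ± 0.707 against 0.764 ± 0.141 CPM on control medium). The nac103-11 libraries held 0.617 ± 0.138 CPM of it on control medium, which did not pass the test against WT (adjusted p = 0.515) and so does not check that label, and 0.0804 ± 0.0701 CPM on spectinomycin against 0.558 ± 0.0391 in WT (adjusted p = 9.41e-05). The 12 root tip markers were all present, at a summed 210.7 to 277.8 CPM. Of 14 shoot, leaf and stomatal markers 11 were in the table, at a summed 0.137 to 1.35 CPM. Of these 11, AFO, YAB2 and KAT1 were at 0 in 22 of 24 libraries, STM in 20, SPCH in 21, and FMA and TGG2 in 23. The other 4 were detected more often: YAB3 was at 0 in 1 library (79 counts in all), MYB60 in 2 (45 counts), TMM in 8 (25 counts) and TGG1 in 10 (46 counts, up to 0.901 CPM).

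WT control replicate 2 stood apart from its group. The chi-square of gene counts per degree of freedom was 8.90 and 9.02 against the other WT control libraries, which differed from each other by 1.81. Its light harvesting genes summed to 810.3 CPM against 482.4 and 474.9 in replicates 1 and 3, and its root markers to 210.7 CPM against 274.3 and 277.8, while its shoot markers, at 0.459 CPM, were below those of replicates 1 and 3 (1.04 and 0.784 CPM). The part of these differences in the RBCS results was not tested. Fold changes against WT control libraries are given without this library where its loss moved them by over 1.5 times.

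RBCS1A made up most of the RBCS transcript in every group. In the authors' TPM, which divide by length and allow genes to be compared, it stood between 80.7 ± 7.85 TPM in nac103-11 on control medium and 157 ± 2.70 TPM in gun1-101 on spectinomycin (SD, n = 3). In WT on control medium it was at 94.8 TPM (64.3 without replicate 2), and 8.12% of all genes in the table had a higher mean there. In the same libraries RBCS3B was at 0.623 TPM (0.365 without replicate 2), RBCS1B at 0.233 TPM and RBCS2B at 0.0833 TPM, below most genes of the table. In bulk root tips fewer cells that express a gene and less RNA per cell cannot be told apart.

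On control medium RBCS1A was at 50.2, 122.7 and 52.3 CPM in the 3 WT libraries. Replicate 2, the library that stood apart, was the high one. The gun1-101 libraries held 135.9, 125.9 and 136.0 CPM, nac103-11 68.9, 77.2 and 63.0 CPM, and NAC103-OX 73.6, 87.1 and 84.3 CPM. In CPM all gun1-101 libraries lay above all other control libraries, and the WT libraries spanned the other 2 groups. In TPM, WT control replicate 2, at 155.7, lay above the gun1-101 control libraries (138.6 to 151.8). On spectinomycin RBCS1A was at 109.9, 122.0 and 114.6 CPM in WT, 134.6, 138.8 and 134.1 CPM in gun1-101, 93.96, 98.97 and 96.55 CPM in nac103-11, and 69.5, 68.3 and 80.7 CPM in NAC103-OX. In CPM the 4 groups did not overlap on spectinomycin: gun1-101 was highest, then WT, nac103-11 and NAC103-OX. In TPM gun1-101 (155.4 to 160.2) and WT (146.9 to 160.9) overlapped, with nac103-11 and then NAC103-OX below both.

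The 3 B copies were near 0 in WT and nac103-11 on control medium and far higher in gun1-101. Because RBCS1B and RBCS3B share stretches of sequence and RSEM divides such reads, the sum of the 3 copies is given first. On control medium it was 0.244, 1.09 and 0.570 CPM in WT, on 4, 19 and 8 counts. It was 0.381, 0.271 and 0.647 CPM in nac103-11, on 19 counts in all, and 1.55, 1.72 and 1.17 CPM in NAC103-OX, on 69 counts. In gun1-101 it was 27.5, 32.5 and 25.0 CPM, on 1066 counts. The gun1-101 libraries stood above every library of every other group, whereas WT and nac103-11 overlapped.

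On spectinomycin the summed B copies were at 7.07, 5.26 and 5.59 CPM in WT and 3.43, 3.44 and 3.81 CPM in NAC103-OX. They were at 18.3, 17.6 and 17.1 CPM in nac103-11 and 24.7, 24.0 and 21.9 CPM in gun1-101. None of the 4 groups overlapped on spectinomycin, and nac103-11 lay nearer to gun1-101 than to WT.

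**Figure D2:**
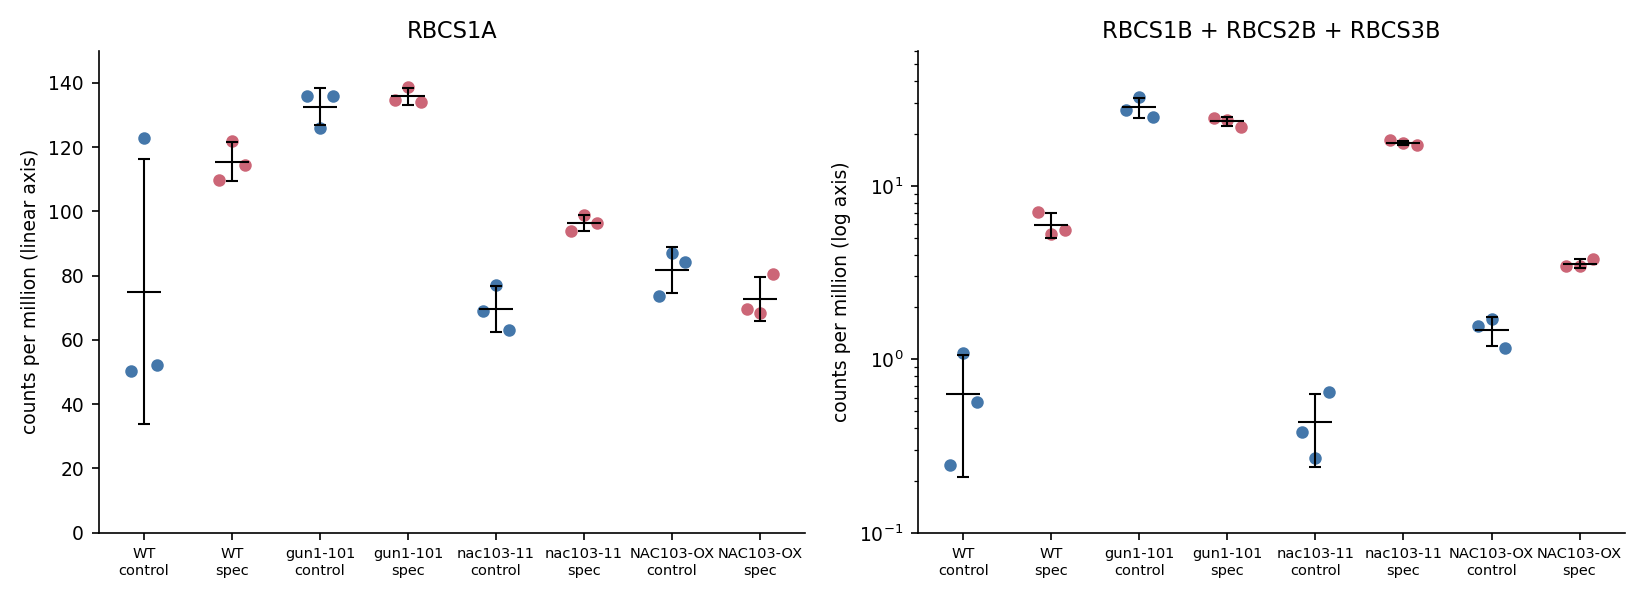
Levels in every library, in CPM, of RBCS1A (left, linear axis) and of the summed B copies (right, log axis), for the 4 genotypes on control medium (blue) and spectinomycin (spec, red); points are libraries, black bars are the mean and SD of 3. RBCS1A spans 50.2 to 138.8 CPM over the 24 libraries, and the B copies span 0.244 to 32.5 CPM.

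In WT the B copies were higher on spectinomycin than on control medium. The summed copies had a log2 fold change of 3.18 ± 0.24 (SE), which is 9.08-fold, and the groups did not overlap. The SE of a fold change is the absolute log2 fold change divided by the square root of edgeR's F statistic over 24 libraries. At few counts it can fall below the counting error, so counting intervals are given beside the largest fold changes. From 31 and 308 counts the pooled ratio was 9.16 (95% counting interval 6.32 to 13.7). RBCS1B, RBCS2B and RBCS3B were each higher with no overlap between groups, and RBCS1A was 1.53-fold higher (0.61 ± 0.22) with overlapping groups. Among all 19567 genes tested, libraries did not overlap in the higher direction for 23.7% and 20.1% were called higher. Without WT control replicate 2 the fold was 14.8 for the B copies, 12.6 for RBCS3B and 2.25 for RBCS1A, and the WT control libraries of RBCS1A then lay below all spectinomycin libraries. Of the 12 root tip markers 1 rose and 2 fell in this comparison, where 20.1% and 20.4% of all genes were called. Without WT control replicate 2, 1 rose and 6 fell. The part of these markers in the RBCS difference was not tested.

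In gun1-101 the levels were nearly the same on both media. The summed B copies were 1.20-fold lower on spectinomycin (log2 fold change -0.27 ± 0.10) with no overlap between groups, which 17.3% of all genes also showed in that direction. RBCS1B differed most of the 3, with 322 counts on control medium and 258 on spectinomycin (log2 fold change -0.50 ± 0.15), while the groups of RBCS2B and RBCS3B overlapped. RBCS1A was at a log2 fold change of 0.03 ± 0.22. The B copies of gun1-101 were thus already on control medium above the level that WT reached on spectinomycin.

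The nac103-11 response of the B copies was the largest of the 4 genotypes in these fits. The sum was 19 counts on control medium and 905 on spectinomycin, at a log2 fold change of 5.31 ± 0.22 or 39.6-fold, and RBCS1A was 1.39-fold higher (0.47 ± 0.23), both with no overlap between groups, as for 27.0% of all genes in the higher direction. RBCS1B and RBCS2B had 2 counts each in the control group, so their ratios carry wide counting intervals: 89.5 (95% interval 24.5 to 744) for RBCS1B and 61.2 (16.6 to 510) for RBCS2B, by the exact Clopper-Pearson method. RBCS3B, with 15 control counts, was 30.2-fold higher (log2 fold change 4.92 ± 0.25). The pooled ratio was 30.8 (95% interval 18.5 to 55.5) for RBCS3B and 40.2 (25.6 to 67.1) for the sum of the copies.

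In NAC103-OX the B copies were 2.40-fold higher on spectinomycin (log2 fold change 1.26 ± 0.22), with no overlap for any of the 3 copies, where 12.2% of all genes did not overlap in that direction. RBCS1A was at -0.16 ± 0.23 with overlapping groups. Set against the WT response, the response of the summed B copies differed by -3.45 ± 0.26 log2 units in gun1-101, 2.12 ± 0.47 in nac103-11 and -1.92 ± 0.37 in NAC103-OX. With that library left out these differences were -4.15, 1.42 and -2.62. All 3 share the WT libraries.

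**Figure D3:**
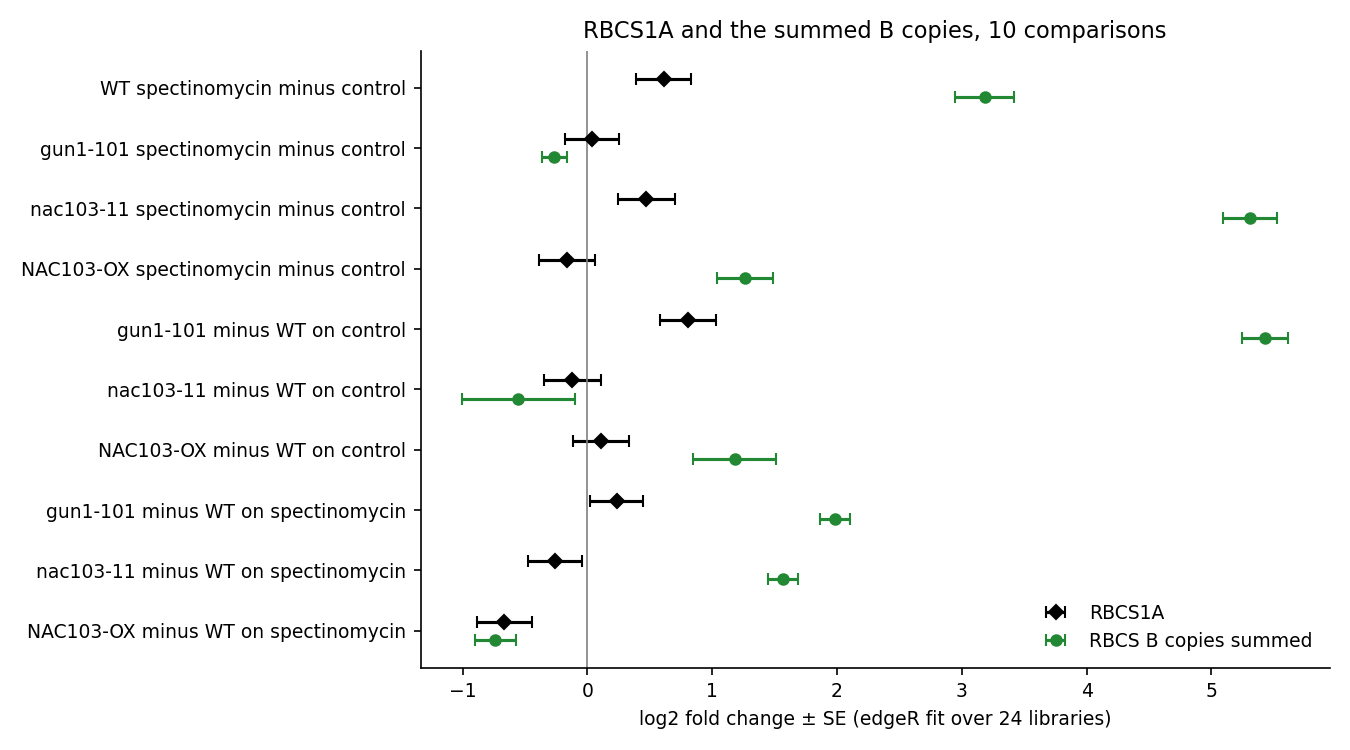
Fitted log2 fold changes, with SE bars, of RBCS1A (black diamonds) and of the summed B copies (green circles) in 10 comparisons: spectinomycin minus control in each genotype, then each altered genotype minus WT on either medium. The B copies reach 5.43 in gun1-101 on control medium, and RBCS1A stays between -0.67 and 0.81.

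On control medium all 4 genes were higher in gun1-101 than in WT. The summed B copies were 43.2-fold higher (log2 fold change 5.43 ± 0.18, close to the 5.31 of the nac103-11 response), RBCS3B 28.9-fold and RBCS1B 64.3-fold. The pooled ratio of the sum was 43.7 (95% interval 30.6 to 64.6). RBCS1B had 6 counts in WT and a pooled ratio of 68.2 (95% interval 31.0 to 187), and RBCS2B, with 2 counts in WT, had a pooled ratio of 134 (95% interval 36.6 to 1110). RBCS1A was 1.75-fold higher (0.81 ± 0.22). In CPM none of the 4 genes overlapped between these groups, and 27.0% of all genes did not overlap in the higher direction. In TPM the groups of RBCS1A overlapped, with WT control replicate 2 at 155.7 and gun1-101 at 138.6 to 151.8. Without WT control replicate 2 the folds were 70.3 for the B copies, 52.1 for RBCS3B, 80.3 for RBCS1B and 2.59 for RBCS1A. In the same comparison 5 of 12 root tip markers were lower in gun1-101 and the other 7 were not called (15.8% of all genes were called lower), at a summed 211 to 221 CPM against 210.7 to 277.8 CPM in WT, and without WT control replicate 2 7 were lower. The shoot markers summed to 0.335 to 0.687 CPM in gun1-101 and 0.459 to 1.04 CPM in WT. The part of the root markers in the RBCS difference was not tested.

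On control medium nac103-11 and WT did not separate: the summed copies were at -0.56 ± 0.45 and RBCS1A at -0.12 ± 0.23, and groups overlapped for all 4 genes. Libraries of 25.3% of all genes did not overlap in the higher direction and of 23.0% in the lower. Leaving out WT control replicate 2, both values turned positive, at 0.15 and 0.44. With 19 and 31 counts, the pooled ratio of the B copies was 0.676 (95% interval 0.361 to 1.24). NAC103-OX was 2.27-fold above WT in the B copies (1.18 ± 0.33) with no overlap, as for 24.7% of all genes, though its lowest library, at 1.17 CPM, was close to the highest WT library at 1.09 CPM. RBCS1B and RBCS3B overlapped there singly, and RBCS1A was at 0.11 ± 0.23. Without WT control replicate 2 the values were 3.69-fold for the B copies, 3.42-fold for RBCS3B and 1.59-fold for RBCS1A.

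On spectinomycin the genotypes ranked clearly in the B copies. WT control libraries enter none of these contrasts, but they do enter the spread shared over the 8 groups. The summed B copies were 3.96-fold above WT in gun1-101 (log2 fold change 1.99 ± 0.12) and 2.96-fold in nac103-11 (1.57 ± 0.12), and each of the 3 copies was higher with no overlap in both. RBCS2B, the lowest copy in WT, differed most, at 7.90-fold in gun1-101 and 4.40-fold in nac103-11. Libraries did not overlap in the higher direction for 30.0% of all genes in gun1-101 and for 20.9% in nac103-11. The 11 shoot markers summed to 0.831 to 1.35 CPM in nac103-11, above the 0.515 to 0.757 CPM of WT on spectinomycin, and to 0.137 to 0.617 CPM in gun1-101. TGG1 differed most, at 0.521 against 0.0210 CPM in WT. MYB60 (0.216 against 0.0771 CPM), SPCH, FMA and YAB2 were also higher in nac103-11. YAB3, STM, TMM and KAT1 were lower than in WT (YAB3 at 0.182 against 0.286 CPM). AFO was at 0.0214 against 0.0210 CPM, and TGG2 was at 0 in both. The part of these few counts in the nac103-11 difference was not tested.

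RBCS1A did not follow the B copies in nac103-11. It was 1.20-fold lower than in WT on spectinomycin (log2 fold change -0.26 ± 0.22) with no overlap between groups, as for 19.0% of all genes in that direction, while the B copies in the same libraries were higher. In gun1-101 RBCS1A was 1.18-fold higher (0.23 ± 0.22) with no overlap in CPM, as for 30.0% of all genes in the higher direction. The 2 mutants thus shared higher B copies on spectinomycin. In CPM their RBCS1A libraries lay on opposite sides of WT, whereas in TPM those of gun1-101 overlapped with WT. Both fitted differences were about the size of their SEs. These SEs rest on a spread shared over the 8 groups, which takes in the WT control libraries (SD 41.3 CPM). On spectinomycin the SDs of RBCS1A were 6.10 CPM in WT, 2.58 in gun1-101 and 2.51 in nac103-11.

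In NAC103-OX both parts of the family were lower than in WT on spectinomycin. The summed B copies were 1.67-fold lower (log2 fold change -0.74 ± 0.16) and RBCS1A 1.59-fold lower (-0.67 ± 0.22), each with no overlap, as for 16.6% of all genes. RBCS1B and RBCS3B were lower with no overlap, and RBCS2B, with 26 and 33 counts, overlapped. The comparisons of the 3 altered genotypes share the WT libraries.

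Ordered by the mean of the summed B copies, the groups ran from nac103-11 and WT on control medium through NAC103-OX on control medium, NAC103-OX on spectinomycin, WT on spectinomycin, nac103-11 on spectinomycin and gun1-101 on spectinomycin to gun1-101 on control medium. The lowest neighbours, nac103-11 and WT, overlapped. The highest neighbours, at 23.5 ± 1.49 and 28.3 ± 3.83 CPM, did not overlap but differed by less than the sum of their SDs, and every other pair of neighbours differed by more than that. For RBCS1A the order was different: nac103-11 on control medium (69.7 ± 7.12 CPM), NAC103-OX on spectinomycin (72.9 ± 6.81), WT on control medium (75.1 ± 41.3) and NAC103-OX on control medium (81.7 ± 7.16) overlapped as neighbours. Next by mean came nac103-11 on spectinomycin (96.5 ± 2.51), WT on spectinomycin (116 ± 6.10) and gun1-101 on control medium (133 ± 5.80). In CPM each of these stood clear of the group next below it, and gun1-101 on spectinomycin (136 ± 2.58) overlapped with gun1-101 on control medium. In TPM gun1-101 on control medium (147 ± 7.11) came below WT on spectinomycin (154 ± 7.05), and these groups overlapped. WT control replicate 2, at 122.7 CPM, nevertheless lay above all libraries of nac103-11 and WT on spectinomycin. Without its replicate 2, WT on control medium, at a mean of 51.3 CPM, would be the lowest group for RBCS1A.

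The make-up of the family differed with genotype and medium. On control medium the B copies gave 0.983% ± 0.314 (SD, n = 3) of the RBCS TPM in WT, 0.755% ± 0.416 in nac103-11 and 2.29% ± 0.591 in NAC103-OX, but 22.5% ± 3.10 in gun1-101. On spectinomycin they gave 6.48% ± 1.40 in WT, 5.96% ± 0.327 in NAC103-OX, 19.2% ± 0.681 in nac103-11 and 18.8% ± 0.879 in gun1-101. The share in WT control replicate 2, the library with the high RBCS1A, was 0.973%, between those of replicates 1 and 3. The ranges of nac103-11 and gun1-101 on spectinomycin overlapped, as did those of WT and NAC103-OX, and the 2 pairs were apart from each other. The sum over the whole family spanned less than the B copies, from 81.3 ± 7.58 TPM in nac103-11 on control medium to 193 ± 3.48 TPM in gun1-101 on spectinomycin.

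Among the 3 copies, RBCS2B had the lowest mean TPM in the groups whose copies held 183 counts or more in all, which were the 4 groups on spectinomycin and gun1-101 on control medium. In gun1-101 on control medium RBCS1B was at 14.5, 19.7 and 15.7 TPM, RBCS3B at 17.7, 18.3 and 13.5 TPM, and RBCS2B at 8.02, 10.8 and 9.43 TPM. RBCS1B and RBCS3B overlapped there and RBCS2B lay below both. In nac103-11 on spectinomycin RBCS3B, at 15.3, 14.8 and 13.7 TPM, was above RBCS1B, at 8.78, 9.60 and 9.68 TPM, with RBCS2B below at 5.83, 4.92 and 5.88 TPM. RBCS3B gave 49.5% ± 2.37 of the copies' TPM in that group, 38.8% ± 4.67 in gun1-101 on control medium and 41.9% ± 2.11 in gun1-101 on spectinomycin. RBCS2B took 24.3% ± 0.260 in gun1-101 on spectinomycin and 11.9% ± 5.23 in WT on spectinomycin, on 33 counts.

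The split between single copies is uncertain. The expected counts of RBCS1A were whole in all 24 libraries, whereas those of RBCS3B were fractional in 17, of RBCS1B in 16 and of RBCS2B in 5, which is how RSEM divides reads that align to several genes. In the reference coding sequences 134 of 447 windows of 100 bases were identical between RBCS1B and RBCS3B, and none were shared with RBCS2B or RBCS1A. The sum of the copies and RBCS1A are not affected by that division among copies.

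**Figure D4:**
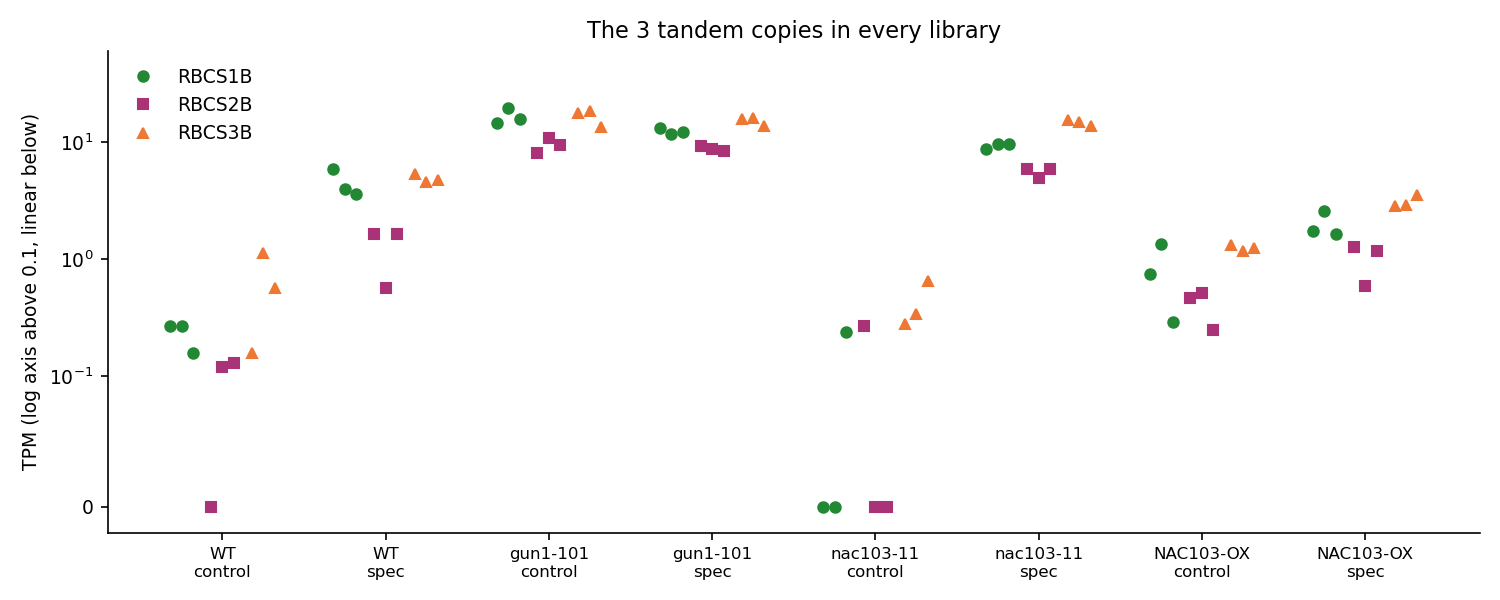
TPM of RBCS1B (circles), RBCS2B (squares) and RBCS3B (triangles) in every library of the 8 groups, on an axis that is logarithmic above 0.1 and linear below; spec is spectinomycin. RBCS2B lies at or below the other copies in most groups, and several libraries of WT and nac103-11 on control medium are at 0 for RBCS1B or RBCS2B.

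The genes beside the tandem had smaller fitted changes than the B copies. Of the 3 nearest tested genes on each side, the largest fitted change in 3 comparisons (the WT response, gun1-101 against WT on control medium and nac103-11 against WT on spectinomycin) was in CYP735A1, a cytokinin hydroxylase, in nac103-11 against WT on spectinomycin, on means of 0.714 and 1.46 CPM and opposite in sign to the B copies. AT5G38360, on the other side, was at 0.51 ± 0.11 in the WT response and -0.44 ± 0.11 in nac103-11 against WT on spectinomycin. In the gun1-101 comparison on control medium AT5G38350 was at 0.46 ± 0.092, against 5.43 for the B copies, and in nac103-11 against WT on spectinomycin it was at 0.47 ± 0.091, in the direction of the B copies.

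The partner gene rbcL gives no reading here. It is transcribed in the plastid, its messages are largely not polyadenylated, and the libraries were made from poly(A) RNA; it had 0 to 5 counts in every library.

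The genes whose profile was most like that of RBCS1A over the 24 libraries, by Pearson r of log2 CPM among 8517 tested genes with a symbol, were mostly photosystem and Calvin-Benson cycle genes. They were PSBQA (r = 0.926) and PSBQ-2 (0.867), subunits of the oxygen-evolving complex, the photosystem II subunit PSBW (0.875), the antenna genes CAB1 (0.914) and LHCB2.1 (0.900), SBPASE (0.896), which encodes sedoheptulose-bisphosphatase, PRK (0.864), phosphoribulokinase, and PTAC16 (0.862), a protein of the plastid chromosome. PSBQA had a mean of 8.79 CPM in gun1-101 against 4.36 CPM in WT on control medium, and of 9.09 against 8.05 CPM on spectinomycin. The 8 genes were chosen for this likeness, the points share libraries and groups, and r is a description. When WT control replicate 2 was left out, PSBQA, CAB1, LHCB2.1 and SBPASE kept ranks 1 to 4, PSBQ-2 fell to rank 10 and PRK to rank 16. Over the 8 group means PTAC16, PSBQA and SBPASE ranked 1, 2 and 4. CAB1 then ranked 9, LHCB2.1 18, PSBW 24, PRK 34 and PSBQ-2 38.

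The genes most like the summed B copies were PMDH2 (r = 0.933), the peroxisomal malate dehydrogenase, PTAC16 (0.925), LHCB2.2 (0.910), FBA1 (0.907), a plastid aldolase, PSAH2 (0.905), a subunit of photosystem I, GLU1 (0.899), ferredoxin-dependent glutamate synthase, LHCB2.1 (0.898) and SBPASE (0.873). PTAC16, LHCB2.1 and SBPASE were among the 8 of both profiles. Most were low: PTAC16 went from 0.238 CPM in WT to 2.60 CPM in gun1-101 on control medium, and PMDH2 from 1.29 to 4.82 CPM. In nac103-11 on spectinomycin, where the B copies stood 2.96-fold above WT, LHCB2.2 was at 1.59 CPM against 1.16 in WT and PTAC16 at 1.13 against 1.18. All 8 stayed within the first 8 when WT control replicate 2 was left out. Over the 8 group means PSAH2 ranked 9 and LHCB2.1 10, and the rest stayed within the first 8.

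In WT on spectinomycin the called genes of the rest of the Calvin-Benson cycle mostly rose, by less than the B copies. Of 20 carbon fixation genes, all tested, 10 rose and 1 fell, with a median log2 fold change of 0.40 against 0.03 for all genes, where 20.1% of genes were called higher and 20.4% lower. FBA1 rose from 0.696 ± 0.743 to 2.12 ± 0.225 CPM (log2 fold change 1.53 ± 0.39, edgeR adjusted p = 0.00192). SBPASE rose to 2.73 CPM (1.03 ± 0.29, adjusted p = 0.00404), a call lost without WT spectinomycin replicate 2. GAPA-2, a plastid glyceraldehyde-3-phosphate dehydrogenase, rose by 0.90 ± 0.20 (adjusted p = 0.00024), and RCA, which encodes Rubisco activase, from 56.0 to 83.1 CPM (0.56 ± 0.079, adjusted p = 1.43e-06). EMB3119, annotated as ribose-5-phosphate isomerase, fell by 0.32 (SE 0.063, adjusted p = 4.6e-05). Without WT control replicate 2, 13 rose and 2 fell, and FBA1 was at 2.97 and SBPASE at 1.72. With only the WT groups in the fit, 6 of the 20 rose.

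In gun1-101 2 of these genes rose on spectinomycin and the other 18 were not called, where 3.22% of all genes were called higher and 7.96% lower; with only the gun1-101 groups in the fit 6 rose. The response differed from that of WT in 7 of 20 (6 lower, 1 higher), where 10.8% and 13.7% of all genes were called in those directions, and 12 were lower and 2 higher without WT control replicate 2. On control medium 9 were higher in gun1-101 than in WT and 4 lower (median 0.31; 24.7% and 15.8% of all genes), among them FBA1 (1.71 ± 0.40, adjusted p = 0.000903), SBPASE (1.65 ± 0.28, adjusted p = 9.82e-06), GAPA-2 (1.40 ± 0.19, adjusted p = 1.22e-07) and the aldolase FBA2 (1.18 ± 0.26, adjusted p = 0.00121). On spectinomycin 5 were higher and 2 lower than in WT (27.7% and 29.3% of all genes), PRK by 0.82 ± 0.26 (adjusted p = 0.0131). That call of PRK was lost without gun1-101 spectinomycin replicate 2.

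In nac103-11 10 of the 20 rose and 1 fell on spectinomycin (21.4% and 23.4% of all genes), led by FBA1 at 2.32 ± 0.43 (adjusted p = 5.9e-05) and FBA2 at 1.25 ± 0.29 (adjusted p = 0.00172). Against WT on spectinomycin 0 of 20 were called in either direction by edgeR (median -0.02), 1 was lower at an unadjusted p under 0.05, and DESeq2 called 0, where 15.5% of all genes were called higher and 11.1% lower and where the summed B copies were 2.96-fold higher. FBA1 was at 2.29 ± 0.990 CPM in nac103-11 and 2.12 ± 0.225 CPM in WT. In NAC103-OX 1 rose on spectinomycin and the other 19 were not called (2.24% of all genes higher and 2.82% lower), and against WT on spectinomycin 1 was higher and 2 were lower (8.45% and 8.32%), the lower ones being GAPA-2 (-0.74 ± 0.19, adjusted p = 0.0047) and CP12-2 (-0.73 ± 0.17, adjusted p = 0.00188), which encodes a linker protein of the cycle. Leaving out WT control replicate 2, which enters both only through the shared spread, gave 3 that fell in the NAC103-OX response and 6 lower than in WT on spectinomycin.

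On control medium 4 of the 20 were higher and 4 lower in nac103-11 than in WT (23.2% and 20.1% of all genes), and 8 were higher and 1 lower in NAC103-OX (22.8% and 22.6%). Without WT control replicate 2 the counts were 9 and 5 in nac103-11 and 11 and 1 in NAC103-OX, and in gun1-101 they were 12 and 3, with FBA1 at 3.15, SBPASE at 2.34 and FBA2 at 1.92 log2 units above WT. RCA, at 84.8 ± 0.587 CPM in NAC103-OX against 56.0 ± 10.9 CPM in WT, was called higher (0.59 ± 0.079, adjusted p = 6.06e-07).

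The light harvesting genes, which encode the chlorophyll-binding antenna proteins, mostly rose in WT on spectinomycin. Of 17 tested, 15 rose and 1 fell (median 0.78; 20.1% and 20.4% of all genes), LHCB4.2 from 18.1 to 34.2 CPM (0.91 ± 0.084, adjusted p = 5.06e-12) and LHCB3 from 29.7 to 63.0 CPM (1.07 ± 0.14, adjusted p = 6.41e-06). LHCB2.3 was the one that fell, from 1.97 to 0.236 CPM (-3.03 ± 0.36, adjusted p = 2.31e-09). With only the WT groups in the fit 7 rose, and without WT control replicate 2 16 did. In gun1-101 against WT on control medium 14 were higher and the other 3 not called (24.7% of all genes higher and 15.8% lower), with LHCB2.2 at 2.78 ± 0.40 (adjusted p = 1.38e-07; 4.17 without WT control replicate 2), and with only those groups in the fit 5 were higher. Against WT on control medium 3 were higher and 5 lower in nac103-11 (23.2% and 20.1% of all genes), and 8 and 2 were without WT control replicate 2. In NAC103-OX 11 were higher and 1 lower (22.8% and 22.6% of all genes), and 13 and 1 were without that library. The close copies CAB1 to CAB3, and LHCB2.1 and LHCB2.2, may share reads.

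On spectinomycin the antenna genes were mixed in nac103-11. Against WT 3 were higher, 5 lower and 9 not called (median -0.23; 15.5% and 11.1% of all genes): LHB1B2 stood at 116 ± 4.31 CPM against 194 ± 21.4 (-0.74 ± 0.11, adjusted p = 4.85e-05) and LHCB3 at 37.2 ± 3.70 against 63.0 ± 1.14 CPM (-0.76 ± 0.14, adjusted p = 0.00037), while LHCB2.3 was higher (2.65 ± 0.38, adjusted p = 3.11e-07). RBCS1A, at 96.5 against 116 CPM, lay on the side of LHB1B2 and LHCB3. Leaving out WT control replicate 2, which enters only through the shared spread, gave 9 lower, and leaving out WT spectinomycin replicate 2, nac103-11 spectinomycin replicate 1 or replicate 3 gave 3. In NAC103-OX 7 were lower than in WT and the other 10 not called (median -0.36; 8.45% of all genes higher and 8.32% lower), with LHCB2.2 at -1.48 ± 0.37 (adjusted p = 0.00375) and LHCB2.1 at -1.01 ± 0.22 (adjusted p = 0.00118), and 4 were lower without WT spectinomycin replicate 3. In gun1-101 4 were higher than in WT and the other 13 not called (27.7% and 29.3% of all genes), CAB3 by 1.22 ± 0.26 (adjusted p = 0.000113).

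**Figure D5:**
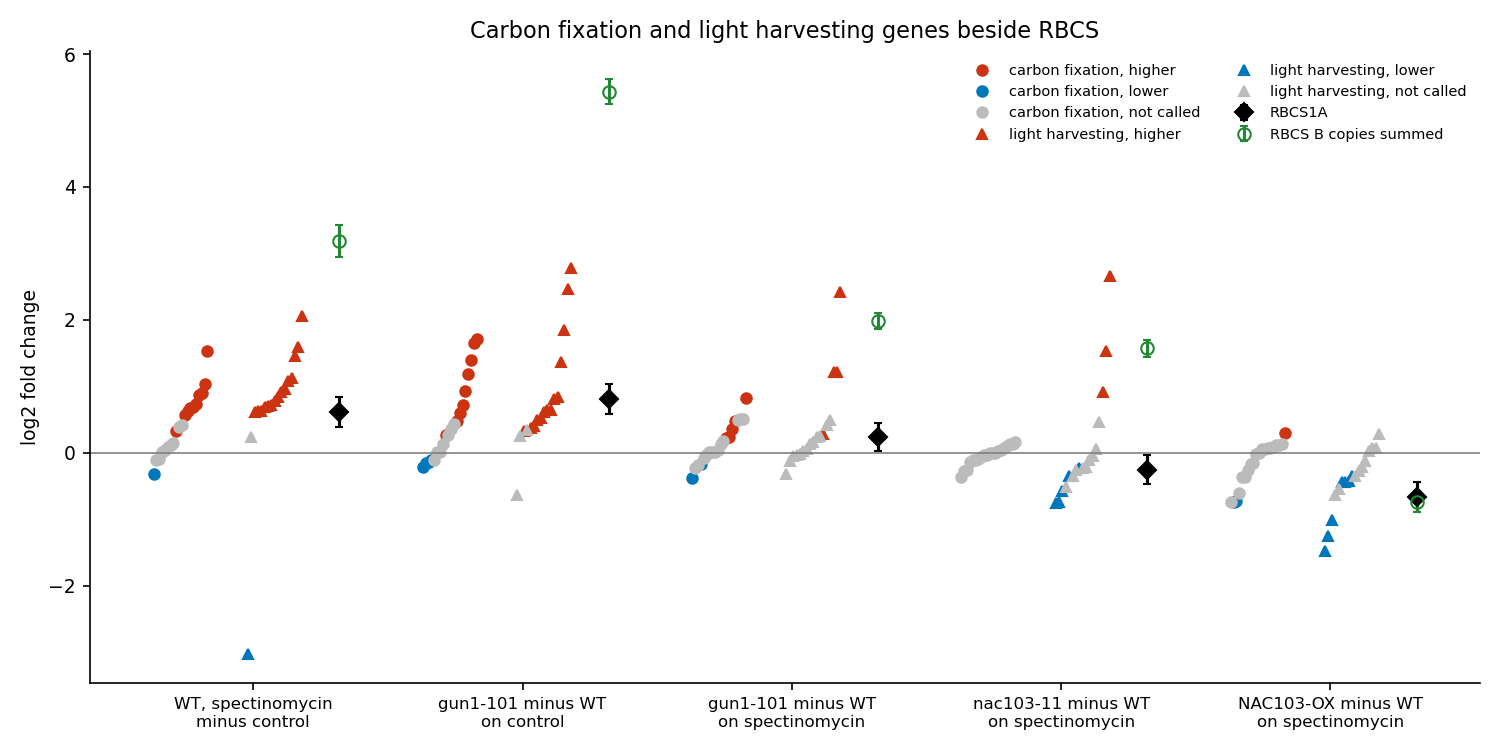
Log2 fold changes of the 20 carbon fixation genes (circles) and 17 light harvesting genes (triangles) beside RBCS1A (black diamonds) and the summed B copies (open green circles, both with SE bars) in 5 comparisons; red genes were called higher, blue lower and grey not called. In nac103-11 against WT on spectinomycin the B copies are at 1.57 while 0 of 20 carbon fixation genes are called.

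Genes that serve the making of Rubisco were mixed. Of 19 tested for its assembly, 9 rose and 2 fell in WT on spectinomycin (median 0.27; 20.1% and 20.4% of all genes), and 12 and 2 did without WT control replicate 2. CPN60A, a subunit of the chaperonin that folds the large subunit, rose from 107 to 151 CPM (0.50 ± 0.047, adjusted p = 4.2e-12), and the assembly chaperone gene RbcX2 fell from 24.2 to 15.4 CPM (-0.65 ± 0.073, adjusted p = 4.75e-10). Set against WT on the same medium, which is a different comparison from the response, RbcX2 was higher in gun1-101 on control medium (0.64 ± 0.067, adjusted p = 6.07e-11) and on spectinomycin (1.21 ± 0.070, adjusted p = 3.33e-19). CPN60A was lower there than in WT on both media (-0.25 ± 0.049, adjusted p = 6.67e-05, and -0.41 ± 0.047, adjusted p = 3.84e-10). On control medium 4 of the 19 were higher in gun1-101 and 5 lower (24.7% and 15.8% of all genes), and on spectinomycin 3 and 8 (27.7% and 29.3%). The higher counts lay below the share of all genes. In nac103-11 on spectinomycin 2 were higher and 6 lower than in WT (15.5% and 11.1% of all genes), with Cpn60beta2 at -0.60 ± 0.061 (adjusted p = 9.92e-11).

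The import route of the small subunit precursor changed little in size. Of 17 translocon and motor genes 6 rose and 3 fell in WT on spectinomycin (median 0.07; 20.1% and 20.4% of all genes; 7 and 2 without WT control replicate 2), and all lay between -0.23 and 0.47. In gun1-101 3 were higher and 6 lower than in WT on control medium, where 24.7% and 15.8% of all genes were, and 5 and 3 were without that replicate. On spectinomycin 4 were higher and 6 lower, near the 27.7% and 29.3% of all genes, and cpHsc70-2, a stromal heat shock protein of the import motor, was at 162 against 96.9 CPM (0.74 ± 0.046, adjusted p = 2.95e-18). In nac103-11 on spectinomycin 2 were higher and 3 lower (15.5% and 11.1% of all genes).

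Photorespiration recycles the product of the oxygenase reaction of Rubisco, and of its 15 tested genes 8 rose and 2 fell in WT on spectinomycin (median 0.28; 20.1% and 20.4% of all genes), and 10 and 2 did without WT control replicate 2. AT1G80380, annotated as a P-loop nucleoside triphosphate hydrolase, had the largest fitted change of the list and fell from 944 ± 6.07 to 289 ± 4.58 CPM (-1.71 ± 0.046, adjusted p = 6.14e-31). It was higher than in WT on spectinomycin in gun1-101 (1.92 ± 0.046, adjusted p = 2.19e-33) and in nac103-11 (1.40 ± 0.045, adjusted p = 2.18e-27). Against WT on control medium 6 of the 15 were higher and 3 lower in gun1-101 (24.7% and 15.8% of all genes), and on spectinomycin 5 were higher in nac103-11 and the other 10 not called (15.5% and 11.1%).

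Of the regulators of RBCS and other photosynthesis genes, 17 of 21 were tested. GPRI1, GNC, CGA1 and ABI4 had too few counts. In WT on spectinomycin 11 rose and 1 fell (20.1% and 20.4% of all genes), and 13 rose without WT control replicate 2. PIF4, a phytochrome-interacting factor, rose from 1.24 to 3.98 CPM (1.62 ± 0.22, adjusted p = 6.58e-08) and PIL5, another, by 0.67 ± 0.11 (adjusted p = 1.07e-06). PIF4 was lower than in WT on spectinomycin in both mutants, at -1.14 ± 0.21 in gun1-101 (adjusted p = 1.5e-05) and -1.06 ± 0.20 in nac103-11 (adjusted p = 5.7e-05). Against WT on spectinomycin 2 of the 17 were higher and 5 lower in gun1-101, where 27.7% and 29.3% of all genes were, and 5 and 2 in nac103-11, where 15.5% and 11.1% were, so that the lower counts lay near the share of all genes in both. In NAC103-OX 4 were higher and the other 13 not called (8.45% and 8.32% of all genes), and HY5, a light-response factor known to bind G-boxes, was at 42.4 ± 3.44 against 33.5 ± 0.595 CPM (0.34 ± 0.085, adjusted p = 0.00536), with the related HYH at 0.40 ± 0.080 (adjusted p = 0.000312). On control medium 13 of the 17 were higher and 0 lower in NAC103-OX than in WT (22.8% and 22.6% of all genes). These counts were the same without WT control replicate 2.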

How the data were processed

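The authors deposited 1 table with expected counts and TPM per library, made with RSEM 1.3.1 per the submitters' processing notes; the aligner, genome build and annotation are not given in the sources used here. Of the deposited expected counts 98.3% were whole, and they were rounded. The other 80 columns of values were not used. The 4 RBCS genes and the gene lists were chosen with earlier results of these data known. Named genes are the RBCS genes, rbcL, GUN1, NAC103, any carbon fixation gene, up to 3 called members per other list with the smallest p, and the 8 genes most alike in profile.

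All 24 libraries entered 1 edgeR 4.0.16 fit (R 4.3.3) with a mean per group, TMM, filterByExpr (minimum count 10, minimum total 15; 19567 genes kept, 4930 left out) and robust quasi-likelihood tests, adjusted by Benjamini-Hochberg over all genes in each of 13 contrasts, at 0.05. All 4 RBCS genes passed the filter. The fit was first tested on simulated data. P-values measure the spread between libraries labelled biological replicates. Log2 values for likeness used a prior count of 2. Sequences and motifs are from RefSeq TAIR10.1, whose match with the authors' build is not known. Intervals cover counting error only. Alternatives were RLE size factors, DESeq2 1.42.0, no filter, only the groups compared, a replicate block and leaving out each library.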

Additional observations from a re-analysis of the deposited data

Results flagged for a closer look

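The summed B copies differed between media in opposite directions in WT and gun1-101, and by little in gun1-101. Their sum was higher in every WT library on spectinomycin than in every WT control library (log2 fold change 3.18) and was lower in every gun1-101 library on spectinomycin than in every gun1-101 control library (-0.27), which 17.3% of all genes also showed in that direction. RBCS2B and RBCS3B overlapped between media in gun1-101. RBCS1B alone did the same, at 3.83 in WT and -0.50 in gun1-101. These differences were not tested, since the genes were chosen with their values known.

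Among the carbon fixation genes outside the family, the response differed from that of WT by edgeR's interaction test for GAPA-2 (-0.92 ± 0.26, adjusted p = 0.00654), SBPASE (-1.14 ± 0.37, adjusted p = 0.0218) and CP12-2 (-0.94 ± 0.26, adjusted p = 0.00483) in gun1-101. It also differed for CP12-2 in nac103-11 (-0.99 ± 0.25, adjusted p = 0.00452), and for FBA2 (-1.14 ± 0.35, adjusted p = 0.0204) and CP12-2 (-1.06 ± 0.26, adjusted p = 0.00138) in NAC103-OX. These are some of the genes called, all on the lower side. In nac103-11 3 of the 20 were called higher and 3 lower, where 1213 and 1087 of 19567 genes were. In NAC103-OX 2 were higher and 6 lower, where 3214 and 2962 of all genes were. Without WT control replicate 2 the counts were 3 and 10 in nac103-11 and 3 and 14 in NAC103-OX. The SBPASE call was lost without WT control replicate 1 or 3, WT spectinomycin replicate 2, gun1-101 control replicate 3 or gun1-101 spectinomycin replicate 3, that of GAPA-2 without WT control replicate 1, and that of FBA2 without WT control replicate 3. Without WT control replicate 2 SBPASE was at -1.83 in gun1-101 and FBA2 at -1.87 in NAC103-OX.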

How the results depend on the processing

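The 78 fitted RBCS log2 fold changes (4 genes and 2 sums, 13 contrasts) moved by less than the spread between replicates under RLE size factors, DESeq2, no filter and the replicate block, and so did the 70 that could be fitted with only the groups compared. The replicate block gave 3.19 for the summed B copies and 0.64 for RBCS1A in the WT response. Replicate numbers do not pair the libraries: the 84 same-numbered pairs had deviations correlated at -0.074 to 0.077, and 11 of 24 libraries were closest to their own number. Leaving out 1 library in turn gave 2.78 to 3.88 for the B copies in the WT response, 5.05 to 5.74 in the nac103-11 response, 5.03 to 6.14 in gun1-101 against WT and 0.78 to 1.88 in NAC103-OX against WT on control medium. For RBCS1A it gave 0.38 to 1.17 in the WT response and, against WT on control medium, 0.58 to 1.37 in gun1-101, -0.12 to 0.67 in NAC103-OX and -0.35 to 0.44 in nac103-11. With only the groups compared, carbon fixation genes called higher numbered 6 in the WT response, 6 in the gun1-101 response, 5 and 9 in gun1-101 against WT on control medium and spectinomycin, and 4 and 2 in NAC103-OX. Light harvesting genes called higher then numbered 7, 12, 5, 9, 6 and 1 in the same order, and DESeq2 called 0 in the gun1-101 response. Over the left-out libraries the carbon fixation counts ran from 1 to 5 in the gun1-101 response, 0 to 1 in the NAC103-OX response, 3 to 8 in gun1-101 on spectinomycin and 4 to 9 in nac103-11 on control medium. The light harvesting counts ran from 0 to 12 in the gun1-101 response, 3 to 8 in gun1-101 on spectinomycin, 2 to 8 in nac103-11 on control medium, and from 0 to 1 in NAC103-OX against WT on spectinomycin. The cause was not tested. With 19 to 31 counts of the B copies in WT and nac103-11 on control medium, differences there were not resolved at this depth. Over all genes, those called higher numbered 3939 in the WT response and 2559 with only its groups in the fit, and 631 and 1133 in the gun1-101 response. Leaving out 1 library gave 210 to 731 called higher (438 with all) and 273 to 982 called lower (552) in the NAC103-OX response.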
